A study of Schizosaccharomyces pombe with 9 samples.

Results

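The genes described here were those for glycosylation and glycosylphosphatidylinositol (GPI) anchors in the fission yeast Schizosaccharomyces pombe. They were chosen by symbol alone, from the families alg, dpm, gmh, gma, gms, pvg, omh, ogm, och, anp, mnn, pmt, otg, ost, stt, wbp, swp, gpi and uge, each followed by a number. The rule found 59 genes, with 1 probe set each, among the 2918 named S. pombe genes (2937 probe sets) of the array. For 3 of them the symbol matched but the known role lies elsewhere, since pmt1 encodes a tRNA methyltransferase, pmt3 the SUMO protein and stt4 a phosphatidylinositol kinase. The other 56 fell into galactose addition and UDP-galactose supply (10), Golgi mannose addition (9), protein O-mannosylation (3), dolichol-linked oligosaccharide assembly (15), the oligosaccharyltransferase (6), and GPI anchor assembly and attachment (13). In the current annotation 69 symbols match the rule, and 10 of them had no member probe set, namely gmh4, gmh5, gmh6, gms2, otg1, otg2, otg3, ost3, ost5 and wbp4.

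The study compared 3 strains with 3 Affymetrix arrays each. WT was SPQ-01, SD1 was SPQ-01 with rpl32-1 deleted (rpl3201) and SD2 was SPQ-01 with rpl32-2 deleted (rpl3202), the paralogous genes for protein L32 of the large ribosomal subunit. Cultures in YEPD medium were kept at 30 °C and taken at OD600 5.0, called log phase in the labels, and the series concerns flocculation without mating. Mating type and further alleles were not given in the sources used here, each deletion was represented by 1 strain, and the arrays are labelled biological replicates with nothing on separate cultures, so p-values measure only the spread between these samples.

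Sugar chains reach secreted proteins of yeast by several routes. An oligosaccharide is built on the lipid dolichol at both faces of the endoplasmic reticulum membrane and moved as a block to asparagine residues by the oligosaccharyltransferase, while protein O-mannosyltransferases attach mannose to serine and threonine, and a separate pathway builds the GPI lipid that anchors many wall and surface proteins, adhesins of yeasts among them. In the Golgi of S. pombe both kinds of chain are extended with mannose and capped with galactose, and galactose at the surface is what the flocculins of this yeast bind, so free galactose disperses the clumps.

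Values are log2 expression values as the authors deposited them, and a difference of 1 is a change of 2-fold. The deleted genes followed the labels, with rpl3201 at 4.17, 6.04 and 4.90 in SD1 and at 13.88 to 15.12 elsewhere, and rpl3202 at 7.25, 8.89 and 7.88 in SD2 and at 14.11 to 14.48 elsewhere. All 59 genes lay above a background yardstick on every array, with a lowest value of 6.61 against yardsticks of 5.13 to 5.26 (the level that 95% of S. cerevisiae probe sets stay under). The signal of 18S rRNA at its 3' end minus that at its 5' end, a sign of RNA quality, was -1.17 ± 0.32 in WT (SD, n = 3), -0.37 ± 0.055 in SD1 and -0.43 ± 0.13 in SD2, that of 28S rRNA was -0.23 ± 0.21, 0.38 ± 0.23 and 0.26 ± 0.12, and that of ACT1 was 0.30 ± 0.083, 0.30 ± 0.032 and 0.33 ± 0.05. Of 9 probe sets for 7 markers of M mating type cells, 7 fell in SD1 and 2 in SD2, and their summed level (linear scale) was 8303 to 13859 in WT, 4444 to 6946 in SD1 and 6083 to 9903 in SD2. For 4 P cell markers the sums were 1243 to 1437, 1187 to 1366 and 1244 to 1379, with 1 gene higher in each deletion, and for 5 meiosis and spore markers they were 1099 to 2754, 1151 to 2836 and 1124 to 2877, with 1 gene higher and 1 lower in SD1 and 1 higher in SD2. At an adjusted p under 0.05 (limma), the cut for these counts, 19.5% of all probe sets were higher and 23.7% lower in SD1. In SD2 17.6% were higher and 14.3% lower. In such bulk samples, fewer cells of a type and less RNA per cell cannot be told apart. No marker of the 3 lists lay at background in all 3 arrays of a strain. The 18S and 28S signals and the M cell markers moved with both comparisons against WT, and their part in those results was not tested. Between SD1 and SD2 the 18S signals differed by less than the spread within SD2. The M cell sums of SD1 and SD2 overlapped, as did those of WT and SD2, and the part of these markers in SD2 against SD1 was not tested. Arrays with the same number shared many exactly equal values, so the number was treated as a possible processing set and values within numbers are given beside the main results.

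Most of the genes that changed fell. In SD1, 23 of the 59 genes were lower than in WT and 5 were higher, led by the galactosyltransferase homologue gene gmh1 (5.75-fold lower), the GPI pathway gene gpi12 (3.13-fold lower), the mannosyltransferase gene alg3 (2.29-fold lower) and, in the other direction, omh5 (2.18-fold higher), of a mannosyltransferase family. In SD2, 14 were lower and 3 higher, with the same leading genes in the same directions: gmh1 3.87-fold lower, alg3 1.95-fold lower, gpi12 1.9-fold lower and omh5 1.99-fold higher. The deletions are both set against the same WT arrays. Calls were made with limma at an adjusted p under 0.05 over all 2937 probe sets.

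In SD1 the 28 called genes were 47.5% of the 59, beside 43.2% called among all probe sets tested. The direction split differed from that of all probe sets: 39% of the members were lower beside 23.7%, and 8.47% were higher beside 19.5%. In SD2 the 17 called genes were 28.8% beside 31.9%, with 23.7% lower beside 14.3% and 5.08% higher beside 17.6%. The median change of the members was -0.19 in SD1 and -0.12 in SD2, beside -0.03 and 0.01 for all probe sets. Within arrays numbered 1, 2 and 3 the members' median was -0.14, -0.27 and -0.15 in SD1 and -0.08, -0.22 and -0.09 in SD2. Of the 59 genes, 16 were called in both deletions, 12 in SD1 alone, 1 in SD2 alone and 30 in neither, with 0 called in opposite directions. These were 27.1%, 20.3%, 1.69% and 50.8% of the members beside 30.1%, 13.1%, 1.8% and 55% of all probe sets, of which 0 were called in opposite directions as well. The arrays did not overlap with WT for 26 lower and 8 higher members in SD1 (44.1% and 13.6%, beside 28.6% and 23.3% of all probe sets), and for 27 and 6 in SD2 (45.8% and 10.2%, beside 20.2% and 23.1%). Most changes were small, since 3 of the 59 genes fell and 1 rose by at least 2-fold in SD1. Among all 2937 probe sets 85 fell and 158 rose by that much (2.89% and 5.38%). In SD2 1 of the 59 fell and 0 rose by at least 2-fold, beside 44 and 97 of all (1.5% and 3.3%). The 3 genes of another role held 1 of these calls, stt4 in SD1 (-0.24 ± 0.06 SE), while pmt1 was at 0.10 in SD1 and 0.15 in SD2 and pmt3 at -0.07 in SD1 and 0.00 in SD2.

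With the array number as a block, 29 members were lower and 7 higher in SD1 (33% and 26.8% of all probe sets), and 22 were lower and 5 higher in SD2 (23.6% and 26%). Arrays of the same number deviated from their strain means together in all 3 pairs of WT and SD1, so block values are given below where they change a call. Without the 3 arrays numbered 1, 26 were lower and 5 higher in SD1 (28.6% and 22.3% of all) and 15 and 5 in SD2 (17.6% and 20.9%). Without the 3 arrays numbered 3, 9 were lower and 2 higher in SD1 (7.49% and 9.47% of all) and 2 and 1 in SD2 (2.35% and 5.65%), and without those numbered 2 the SD2 counts were 7 and 2 (6.33% and 10.5%). Each of these fits had 2 arrays left per strain.

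**Figure D1:**
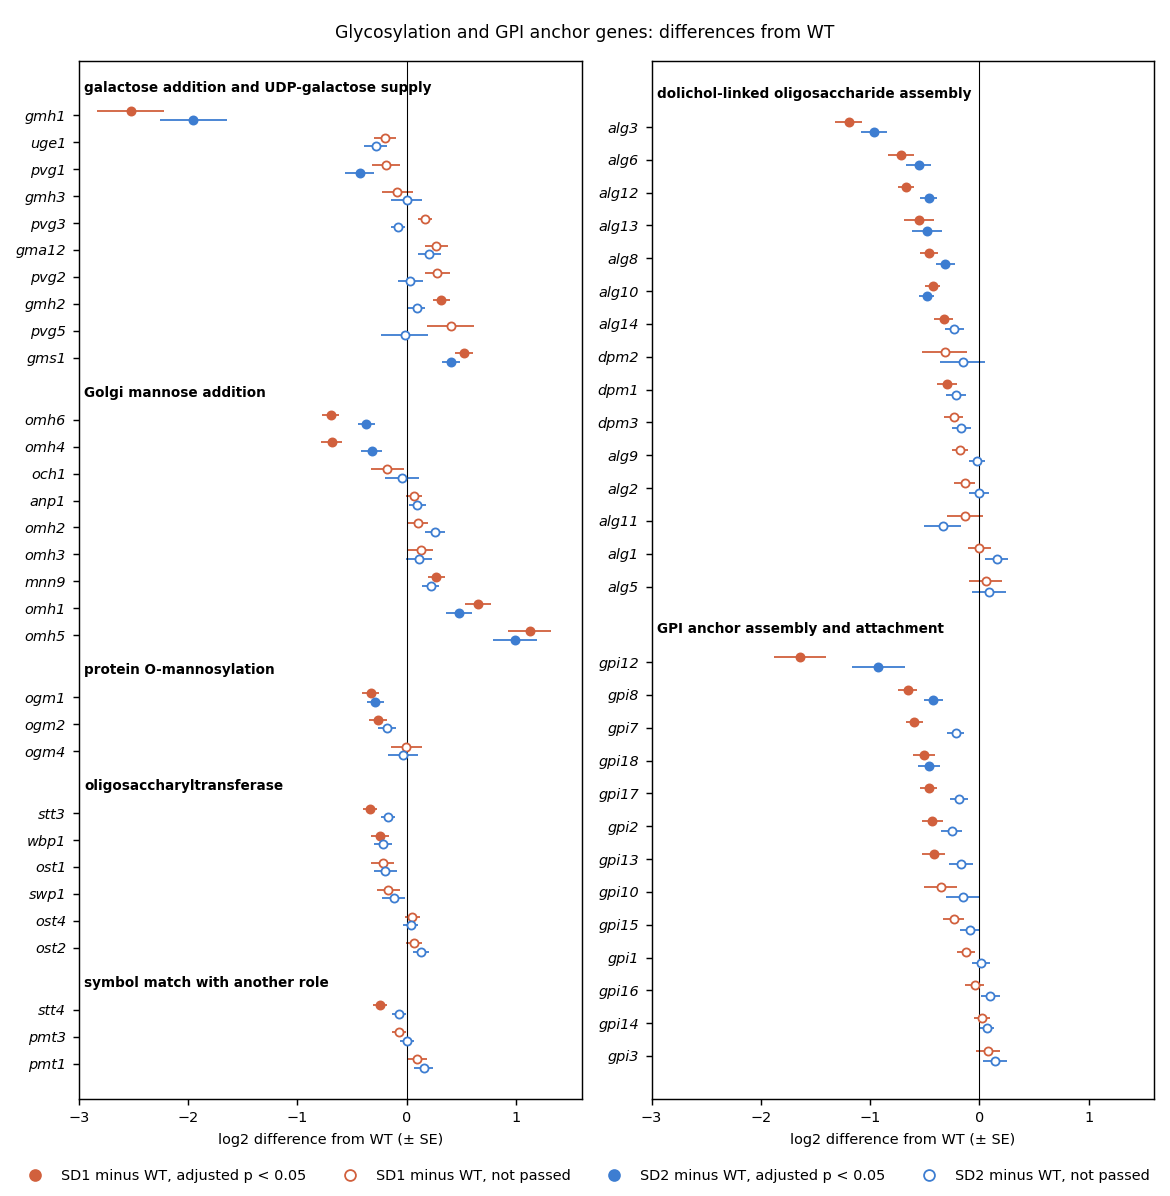
Difference of each of the 59 genes from WT on the log2 scale (x axis) with its standard error from the limma fit, for SD1 (orange) and SD2 (blue), 3 arrays per strain, grouped by role and ordered by the SD1 value. Filled points passed an adjusted p under 0.05. The genes for dolichol-linked assembly and GPI anchors lie mostly left of 0, while gmh1 is the lowest point at -2.52 in SD1 and omh5 the highest at 1.12.

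Among the genes for galactose addition the 1 large change was the fall of gmh1, and the supply gene gms1 rose. Of the 10 measured genes 2 rose and 1 fell in SD1, and 1 rose and 2 fell in SD2, with medians of 0.22 and -0.01. In SD1 20% were higher and 10% lower, beside 19.5% and 23.7% of all probe sets. In SD2 10% were higher and 20% lower, beside 17.6% and 14.3%. With the number block 4 rose and 1 fell in SD1, where 26.8% of all probe sets were higher and 33% lower. In SD2 1 rose and 3 fell with the block, beside 26% higher and 23.6% lower of all. The gmh1 gene encodes a homologue of the alpha-galactosyltransferase Gma12. Its values were 8.68, 10.05 and 8.84 in WT, 6.61, 6.67 and 6.72 in SD1, and 7.21, 7.12 and 7.39 in SD2. Every WT array lay above every deletion array, all 3 SD1 arrays lay below all 3 SD2 arrays, and WT array 2 stood above the other two of its strain. The difference from WT was -2.52 ± 0.31 (SE, n = 3 each) in SD1 (limma adjusted p = 0.000365) and -1.95 ± 0.31 in SD2 (adjusted p = 0.00211). Within numbers 1, 2 and 3 it was -2.08, -3.38 and -2.11 in SD1 and -1.47, -2.94 and -1.45 in SD2, so the pair with WT array 2 gave the widest gap. Leaving out each array in turn, the SD1 value ran from -2.78 to -2.09 and the SD2 value from -2.21 to -1.52.

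Of the homologues of gmh1, gmh2 rose in SD1 and gmh3 did not pass. The gmh2 values were 11.55, 11.54 and 11.51 in WT, 11.84, 11.89 and 11.82 in SD1, and 11.72, 11.46 and 11.68 in SD2. This gene rose in SD1 (0.32 ± 0.08, adjusted p = 0.0129), with all SD1 arrays above all WT arrays, and in SD2 it was at 0.09 ± 0.08 (adjusted p = 0.438) with the arrays overlapping. In the RefSeq annotation (ASM294v3) otg1 lies between gmh1 and gmh2 and overlaps gmh1. Where in gmh1 the probes lie was not analysed here. The gmh3 values were 8.75, 9.29 and 9.05 in WT, 8.80, 9.01 and 9.02 in SD1, and 8.97, 8.93 and 9.18 in SD2, overlapping in all strains, with differences of -0.09 in SD1 and 0.00 in SD2. The gma12 gene, for the galactosyltransferase itself, was at 10.98, 10.96 and 10.87 in WT, 11.38, 10.98 and 11.25 in SD1, and 11.23, 11.10 and 11.08 in SD2. All deletion arrays lay above the WT arrays, narrowly for SD1 array 2, but the differences of 0.27 ± 0.11 (adjusted p = 0.0661) and 0.20 ± 0.11 (adjusted p = 0.173) did not pass. In the fit with the block gma12 passed in SD1 (adjusted p = 0.0319) and not in SD2 (adjusted p = 0.0871). The otg2 gene, for an alpha-galactosyltransferase, lay outside the rule because the probe table lists it as mug136, and it was at 0.11 in SD1 and 0.24 in SD2 without passing.

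The product of gms1, the UDP-galactose transporter, carries the sugar donor into the Golgi. The gms1 values were 10.61, 10.63 and 10.66 in WT, 11.27, 11.03 and 11.17 in SD1, and 11.14, 10.96 and 11.01 in SD2. The 6 deletion arrays lay above the WT arrays, which themselves spanned 0.05, and gms1 was 1.44-fold higher in SD1 (0.52 ± 0.08, adjusted p = 0.00131) and 1.32-fold higher in SD2 (0.40 ± 0.08, adjusted p = 0.00704). The epimerase gene uge1, whose product makes UDP-galactose from UDP-glucose, was at 11.34, 11.62 and 11.46 in WT, 11.13, 11.39 and 11.30 in SD1, and 11.15, 11.13 and 11.30 in SD2. It did not pass in SD1 (-0.20 ± 0.10, adjusted p = 0.145) or in SD2 (-0.29 ± 0.10, adjusted p = 0.0621), although the SD2 arrays lay below all WT arrays, and in SD2 it passed with the number block (adjusted p = 0.0235), after median centring and when WT array 1 was dropped. Beside these, the 3 measured genes of galactose use fell in both deletions, gal1 at -2.77 in SD1 and -2.85 in SD2, gal7 at -2.80 in SD1 and -2.87 in SD2 and gal10, whose product also has epimerase activity, at -3.94 in SD1 and -3.87 in SD2. Of all probe sets 23.7% were lower in SD1 and 14.3% in SD2, and 2.89% and 1.5% were lower by at least 2-fold.

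The pvg genes serve the pyruvylated galactose that gives the surface of this yeast its negative charge. The pyruvyltransferase gene pvg1 was at 11.83, 11.61 and 11.75 in WT, 11.41, 11.84 and 11.37 in SD1, and 11.37, 11.20 and 11.33 in SD2. It fell in SD2 (-0.43 ± 0.13, adjusted p = 0.0348), where all arrays lay below WT, and in SD1, where array 2 lay at the WT level, it was at -0.19 ± 0.13 (adjusted p = 0.274). The SD2 call was lost in 8 of 16 alternative settings or sets of arrays, with adjusted p-values up to 0.212, and without SD1 array 2 the SD1 value passed, at -0.34 (adjusted p = 0.026). The beta-galactosyltransferase gene pvg3 was at 9.50, 9.42 and 9.49 in WT, 9.60, 9.69 and 9.60 in SD1, and 9.41, 9.37 and 9.39 in SD2. Its 3 SD1 arrays lay above and its 3 SD2 arrays below the WT arrays, but the gaps were small (0.16 ± 0.06 and -0.08 ± 0.06) and neither passed (adjusted p = 0.0624 and 0.387), while with the number block pvg3 passed in SD1 (adjusted p = 0.0259). The pvg2 gene, needed for the same galactose structure, was at 9.64, 9.79 and 9.60 in WT, 9.91, 10.004 and 9.96 in SD1, and 9.84, 9.45 and 9.84 in SD2, with SD1 above WT without passing (0.28 ± 0.11, adjusted p = 0.0811). The values of pvg5, needed for it as well, were 8.14, 8.18 and 8.60 in WT, 8.39, 8.94 and 8.81 in SD1, and 7.93, 8.63 and 8.32 in SD2, with a spread within each strain as wide as the gaps between them. The name pvg4 is an older symbol of mbx2 and was not matched by the rule.

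**Figure D2:**
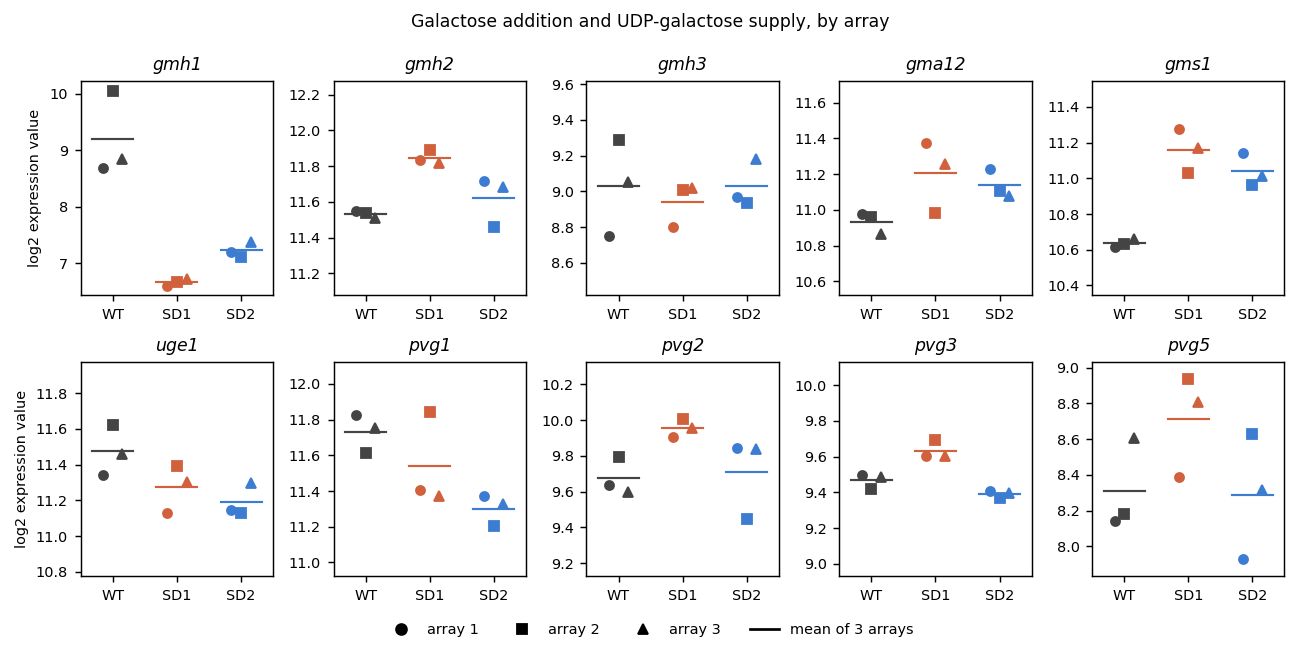
Log2 expression value of each array (y axis, own range per gene and at least 1.2 wide) for the 10 genes of galactose addition and UDP-galactose supply in WT, SD1 and SD2, with symbols for the array number and lines at the strain mean. WT arrays of gmh1 lie at 8.68 to 10.05 and all deletion arrays at 6.61 to 7.39, while gms1 lies at 10.61 to 10.66 in WT and higher in both deletions.

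Genes for mannose addition in the Golgi moved both ways within 1 family. Of 9 measured genes 3 rose and 2 fell in SD1, and 2 rose and 2 fell in SD2, with medians of 0.10 and 0.11. In SD1 33.3% were higher and 22.2% lower, beside 19.5% and 23.7% of all probe sets. In SD2 22.2% were higher and 22.2% lower, beside 17.6% and 14.3%. Products of the omh genes are alpha-mannosyltransferases or their homologues, and Omh1 lengthens O-linked chains. The omh5 values were 8.73, 7.93 and 8.61 in WT, 9.68, 9.46 and 9.51 in SD1, and 9.49, 9.55 and 9.20 in SD2. WT lay below both deletions without overlap, with WT array 2 the lowest, and omh5 rose by 1.12 ± 0.20 in SD1 (adjusted p = 0.00215) and by 0.99 ± 0.20 in SD2 (adjusted p = 0.00627). The omh1 values were 10.57, 10.61 and 10.84 in WT, 11.18, 11.40 and 11.41 in SD1, and 10.96, 11.24 and 11.25 in SD2. This gene rose in both, by 0.65 ± 0.12 (adjusted p = 0.00226) and 0.48 ± 0.12 (adjusted p = 0.015), again without overlap with WT. The SD2 call on omh1 was lost in 4 of 16 alternatives, among them the fits without SD2 array 2 or 3.

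The homologues omh6 and omh4 fell. The omh6 values were 10.34, 10.28 and 10.27 in WT, 9.56, 9.66 and 9.58 in SD1, and 9.86, 10.06 and 9.87 in SD2, a fall in SD1 (-0.70 ± 0.08, adjusted p = 0.00023) and in SD2 (-0.37 ± 0.08, adjusted p = 0.00706), with SD1 below SD2 and SD2 below WT. The omh4 values were 8.50, 8.85 and 8.55 in WT, 7.93, 7.90 and 8.02 in SD1, and 8.28, 8.34 and 8.32 in SD2, in the same order, with differences of -0.69 ± 0.10 (adjusted p = 0.000739) and -0.32 ± 0.10 (adjusted p = 0.0338). The omh4 call in SD2 was lost in 10 of 16 alternatives, with adjusted p-values up to 0.208. The other two homologues did not pass in either deletion, omh2 at 0.10 in SD1 and 0.26 in SD2 and omh3 at 0.13 in SD1 and 0.11 in SD2.

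Of the 3 measured genes that start and extend the N-linked outer chain, 1 passed, in SD1. The och1 gene, for the mannosyltransferase that starts this chain, was at -0.18 in SD1 and -0.04 in SD2 and did not pass. Subunits of the mannan polymerases of budding yeast are named Mnn9 and Anp1. The mnn9 values were 10.56, 10.41 and 10.46 in WT, 10.83, 10.68 and 10.73 in SD1, and 10.78, 10.64 and 10.66 in SD2, a rise in SD1 (0.27 ± 0.08, adjusted p = 0.0201) that was lost in 8 of 16 alternatives (adjusted p up to 0.247), and in SD2 it was at 0.22 ± 0.08 (adjusted p = 0.058, and 0.00368 with the number block). Every deletion array of mnn9 lay above every WT array. The anp1 gene was at 0.07 in SD1 and 0.10 in SD2 without passing.

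The 3 genes for protein O-mannosyltransferases, which attach the mannose that the omh products lengthen, differed from WT by at most 0.33. In SD1 2 of 3 fell, and in SD2 1 of 3 (66.7% and 33.3%, beside 23.7% and 14.3% of all probe sets). The ogm1 values were 11.22, 11.10 and 11.06 in WT, 10.85, 10.83 and 10.71 in SD1, and 10.94, 10.79 and 10.80 in SD2, lower in SD1 (-0.33 ± 0.08, adjusted p = 0.00965) and SD2 (-0.29 ± 0.08, adjusted p = 0.0241). The ogm2 values were 11.78, 11.84 and 11.68 in WT, 11.61, 11.41 and 11.49 in SD1, and 11.66, 11.55 and 11.54 in SD2, lower in SD1 (-0.26 ± 0.08, adjusted p = 0.0269) and at -0.18 ± 0.08 in SD2 (adjusted p = 0.119, and 0.0456 with the number block). For both genes all WT arrays lay above all deletion arrays. With each array centred on its median both SD1 calls and the SD2 call on ogm1 were lost, with 9 of 16 alternatives losing ogm2 in SD1 and 8 losing ogm1 in SD2. Over the alternatives the 3 calls reached adjusted p-values of 0.155, 0.2 and 0.22. The ogm4 gene was at 0.00 in SD1 and -0.04 in SD2.

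For assembly of the dolichol-linked oligosaccharide, 8 of 15 genes fell and 0 rose in SD1, and 6 fell and 0 rose in SD2, with medians of -0.32 and -0.23. The share lower was 53.3% in SD1 beside 23.7% of all probe sets, and 40% in SD2 beside 14.3%. Under the block 10 fell in SD1 and 7 in SD2, beside 33% and 23.6% of all probe sets. Within numbers 1, 2 and 3 the medians were -0.20, -0.43 and -0.23 in SD1 and -0.09, -0.45 and -0.18 in SD2. The largest fall was that of alg3, for the mannosyltransferase that adds the first mannose on the lumenal side. Its values were 10.43, 10.82 and 10.40 in WT, 9.31, 9.46 and 9.29 in SD1, and 9.66, 9.49 and 9.60 in SD2. WT lay above SD2 and SD2 above SD1 without overlap, and the differences were -1.20 ± 0.12 in SD1 (adjusted p = 0.000167) and -0.97 ± 0.12 in SD2 (adjusted p = 0.000867). Within the numbers they were -1.12, -1.36 and -1.11 and -0.77, -1.34 and -0.79.

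The lumenal steps after alg3 use mannose or glucose carried by dolichol phosphate. The mannosyltransferase gene alg12 was at 11.12, 11.21 and 11.15 in WT, 10.47, 10.56 and 10.44 in SD1, and 10.61, 10.80 and 10.68 in SD2, the glucosyltransferase gene alg6, which adds the first glucose, at 10.04, 9.97 and 9.79 in WT, 9.29, 9.31 and 9.06 in SD1, and 9.56, 9.22 and 9.36 in SD2, and the next in line, alg8, at 10.65, 10.91 and 10.70 in WT, 10.27, 10.33 and 10.27 in SD1, and 10.45, 10.38 and 10.49 in SD2. All WT arrays lay above all deletion arrays for each of these genes. The falls were -0.67 ± 0.07 and -0.47 ± 0.07 for alg12 (adjusted p = 0.000235 in SD1 and 0.00221 in SD2), -0.72 ± 0.11 and -0.55 ± 0.11 for alg6 (adjusted p = 0.00135 and 0.00714), and -0.46 ± 0.08 and -0.31 ± 0.08 for alg8 (adjusted p = 0.00239 and 0.0218). The SD2 call on alg8 was lost in 5 of 16 alternatives, among them the fit without SD2 array 2. The alg10 gene, for the last glucose, was at 9.33, 9.28 and 9.22 in WT, 8.89, 8.87 and 8.79 in SD1, and 8.85, 8.81 and 8.72 in SD2, with falls of -0.43 ± 0.07 and -0.48 ± 0.07 (adjusted p = 0.0014 and 0.0014), each SD2 array lying slightly below the SD1 array of its number. The mannosyltransferase gene alg9 was at -0.18 ± 0.07 in SD1 (adjusted p = 0.0761), with all SD1 arrays below WT, and at -0.02 ± 0.07 in SD2 (adjusted p = 0.825). It passed in SD1 with the number block (adjusted p = 0.0105).

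On the cytosolic side the members alg13 and alg14 were called. The enzyme that begins the chain is encoded by gpt2, also named alg7, whose current symbol lies outside the rule. It was at 10.13, 10.24 and 9.91 in WT, 9.11, 9.12 and 8.93 in SD1, and 9.53, 9.23 and 9.36 in SD2, 2.06-fold lower in SD1 (-1.04 ± 0.11, adjusted p = 0.000228) and 1.65-fold lower in SD2 (-0.72 ± 0.11, adjusted p = 0.00205). The products of alg13 and alg14 together add the next sugar. The alg13 values were 9.58, 10.09 and 9.82 in WT, 9.14, 9.29 and 9.39 in SD1, and 9.18, 9.45 and 9.40 in SD2, with falls of -0.55 ± 0.14 (adjusted p = 0.0115) and -0.48 ± 0.14 (adjusted p = 0.0267), and those of alg14 were 9.57, 9.89 and 9.65 in WT, 9.37, 9.34 and 9.42 in SD1, and 9.48, 9.44 and 9.51 in SD2, with a fall in SD1 (-0.33 ± 0.09, adjusted p = 0.0163) and -0.23 ± 0.09 in SD2 (adjusted p = 0.0816). Array 2 was the highest in WT for both genes. The SD1 call on alg14 was lost in 3 of 16 alternatives, among them the fit without SD1 array 2, and the SD2 call on alg13 in 7. The mannosyltransferase genes of the remaining cytosolic steps did not pass in either deletion, alg1 at 0.00 in SD1 and 0.16 in SD2, alg2 at -0.14 in SD1 and -0.01 in SD2 and alg11 at -0.13 in SD1 and -0.34 in SD2.

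Of the genes that charge dolichol phosphate, dpm1, dpm2 and dpm3 for its mannose and alg5 for its glucose, 1 passed. The dpm1 values were 12.72, 12.61 and 12.56 in WT, 12.43, 12.35 and 12.23 in SD1, and 12.56, 12.33 and 12.35 in SD2, a fall in SD1 (-0.29 ± 0.09, adjusted p = 0.03) lost in 8 of 16 alternatives. In SD2 dpm1 was at -0.22, and without passing dpm2 was at -0.32 in SD1 and -0.15 in SD2, dpm3 at -0.24 in SD1 and -0.16 in SD2 and alg5 at 0.06 in SD1 and 0.09 in SD2. Under the block dpm3 passed in SD1 (adjusted p = 0.0495) and dpm1 in SD2 (adjusted p = 0.0114). The plot along the assembly order shows the genes that add sugars to the chain, and leaves out dpm1, dpm2, dpm3 and alg5.

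**Figure D3:**
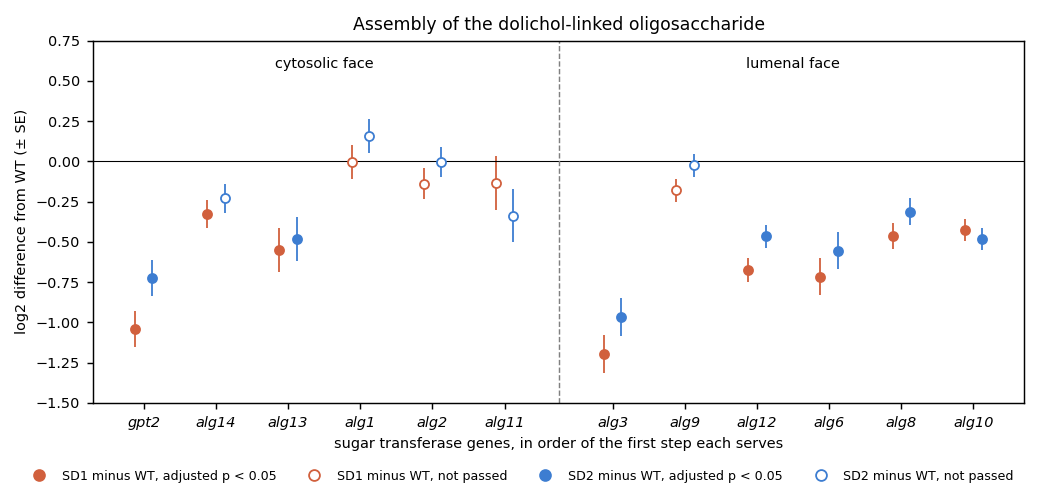
Difference from WT on the log2 scale (y axis, ± SE) for genes of the dolichol-linked oligosaccharide, in the order worked out in budding yeast (x axis), for SD1 (orange) and SD2 (blue), filled where the adjusted p was under 0.05, with 3 arrays per strain. gpt2 is shown for its step and is no member. The lowest point is alg3 at -1.20 in SD1, and alg1, alg2, alg11 and alg9 are open in both deletions.

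The oligosaccharyltransferase moves the finished chain onto the protein. Of its 6 measured genes 2 fell in SD1, both by less than 0.35 (33.3%, beside 23.7% of all probe sets). In SD2 0 passed with limma, beside 31.9% of all probe sets, and 2 had an unadjusted p under 0.05, as had 42.6% of all. The catalytic subunit gene stt3 was at 12.35, 12.36 and 12.29 in WT, 12.06, 11.96 and 11.98 in SD1, and 12.17, 12.19 and 12.12 in SD2. It fell in SD1 (-0.33 ± 0.06, adjusted p = 0.00309), and in SD2, where all arrays lay between those of SD1 and WT, it was at -0.17 ± 0.06 (adjusted p = 0.0729). The subunit gene wbp1 was at 12.54, 12.48 and 12.37 in WT, 12.31, 12.17 and 12.16 in SD1, and 12.36, 12.17 and 12.21 in SD2. It fell in SD1 (-0.25 ± 0.08, adjusted p = 0.0385), a call lost in 9 of 16 alternatives, and was at -0.22 ± 0.08 in SD2 (adjusted p = 0.0764). With the number block 4 of the 6 genes fell in SD1, adding ost1 and swp1 (adjusted p = 0.0262 and 0.0215). In SD2 stt3, wbp1 and ost1 fell and ost2 rose with the block (adjusted p = 0.0181, 0.00922, 0.0457 and 0.0252). That fit called 33% of all probe sets lower in SD1, and 23.6% lower and 26% higher in SD2. The other 4 subunit genes were ost1 at -0.22 in SD1 and -0.19 in SD2, swp1 at -0.17 in SD1 and -0.12 in SD2, ost2 at 0.07 in SD1 and 0.13 in SD2 and ost4 at 0.05 in SD1 and 0.03 in SD2.

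The array carries 3 further control probe sets named for the locus of wbp1, which allowed the same transcript to be read at 3 places. At the 3' end the WT, SD1 and SD2 means were 12.63 ± 0.11, 12.34 ± 0.16 and 12.39 ± 0.14 (SD, n = 3), in the middle 11.53 ± 0.13, 11.38 ± 0.077 and 11.38 ± 0.067, and at the 5' end 11.03 ± 0.18, 11.01 ± 0.16 and 10.95 ± 0.15. From the 3' end over the middle to the 5' end the SD1 difference from WT was -0.29, -0.15 and -0.02 (adjusted p = 0.128, 0.393 and 0.968). The SD2 difference was -0.23, -0.15 and -0.07 (adjusted p = 0.265, 0.394 and 0.825). None of these passed in a limma fit over all 10928 probe sets. With all probe sets in the fit the SD1 call on the wbp1 member probe set was lost as well.

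Of the 13 measured genes of the GPI anchor pathway 7 fell and 0 rose in SD1, and 3 fell and 0 rose in SD2, with medians of -0.42 and -0.17. The share lower was 53.8% in SD1 beside 23.7% of all probe sets, and 23.1% in SD2 beside 14.3%. With the number block 9 fell in SD1, adding gpi10 and gpi15 (adjusted p = 0.025 and 0.0359), and 5 in SD2, adding gpi2 and gpi7 (adjusted p = 0.0454 and 0.0404). The block fit called 33% of all probe sets lower in SD1 and 23.6% in SD2. Within numbers 1, 2 and 3 the medians were -0.33, -0.59 and -0.34 in SD1 and -0.16, -0.14 and -0.17 in SD2. The gpi12 gene encodes the deacetylase of the second step. Its values were 9.71, 10.74 and 10.15 in WT, 8.38, 8.70 and 8.59 in SD1, and 9.02, 9.33 and 9.48 in SD2. WT was the highest and SD1 the lowest without overlap, while the WT arrays themselves spread over 1.03 with array 2 at the top. The differences were -1.64 ± 0.24 in SD1 (adjusted p = 0.000849) and -0.92 ± 0.24 in SD2 (adjusted p = 0.0193), and within the numbers -1.33, -2.04 and -1.57 and -0.69, -1.41 and -0.68. The SD2 call was lost in 4 of 16 alternatives, among them the fits without SD2 array 1 or 2. The SD2 value ran from -1.17 to -0.65 over the arrays left out in turn.

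The first step is served by a complex that joins N-acetylglucosamine to the lipid. Its gene gpi2 was at 9.15, 9.35 and 9.21 in WT, 8.83, 8.72 and 8.87 in SD1, and 8.84, 9.13 and 8.98 in SD2, lower in SD1 (-0.43 ± 0.10, adjusted p = 0.00685) and at -0.26 ± 0.10 in SD2 (adjusted p = 0.0738). The catalytic subunit gene gpi3 was at 0.08 in SD1 and 0.14 in SD2, gpi1 at -0.13 in SD1 and 0.02 in SD2 and gpi15 at -0.24 in SD1 and -0.09 in SD2, none of them passing without the block. Of the mannosyltransferase genes that follow, gpi18 was at 11.08, 11.48 and 11.25 in WT, 10.73, 10.76 and 10.80 in SD1, and 10.75, 10.85 and 10.83 in SD2. It fell in SD1 (-0.51 ± 0.10, adjusted p = 0.00379) and in SD2 (-0.46 ± 0.10, adjusted p = 0.00913), and the deletion arrays spanned only 10.73 to 10.85. Without the block the genes for the mannoses before and after it did not pass, gpi14 at 0.02 in SD1 and 0.07 in SD2 and gpi10 at -0.35 in SD1 and -0.15 in SD2.

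Ethanolamine phosphate is added by the products of gpi7 and gpi13. The gpi7 values were 9.24, 9.33 and 9.16 in WT, 8.67, 8.57 and 8.70 in SD1, and 8.97, 9.11 and 8.99 in SD2, a fall in SD1 (-0.60 ± 0.08, adjusted p = 0.000465) with SD2 in between at -0.22 ± 0.08 (adjusted p = 0.06). The gpi13 values were 10.49, 10.61 and 10.65 in WT, 9.99, 10.37 and 10.14 in SD1, and 10.30, 10.47 and 10.48 in SD2, a fall in SD1 (-0.42 ± 0.11, adjusted p = 0.0129) and -0.17 ± 0.11 in SD2 (adjusted p = 0.261). For both genes WT lay above both deletions on every array.

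The transamidase cuts the protein and joins it to the finished anchor. The gene of its catalytic subunit, gpi8, was at 10.09, 10.08 and 9.91 in WT, 9.40, 9.42 and 9.30 in SD1, and 9.73, 9.51 and 9.57 in SD2. It fell in SD1 (-0.66 ± 0.09, adjusted p = 0.000523) and in SD2 (-0.42 ± 0.09, adjusted p = 0.00706), with SD1 below SD2 and SD2 below WT. The subunit gene gpi17 was at 9.92, 10.19 and 9.99 in WT, 9.57, 9.55 and 9.59 in SD1, and 9.83, 9.84 and 9.87 in SD2, lower in SD1 (-0.47 ± 0.08, adjusted p = 0.00184) and at -0.19 ± 0.08 in SD2 (adjusted p = 0.106). The subunit gene gpi16 was at -0.05 in SD1 and 0.10 in SD2, and gaa1, a subunit gene outside the symbol rule, fell in SD1 (-0.41 ± 0.13, adjusted p = 0.0308, lost in 7 of 16 alternatives) and was at -0.25 in SD2 (adjusted p = 0.0214 with the block). The 4 measured transamidase genes thus ranged from -0.66 to -0.05 in SD1.

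**Figure D4:**
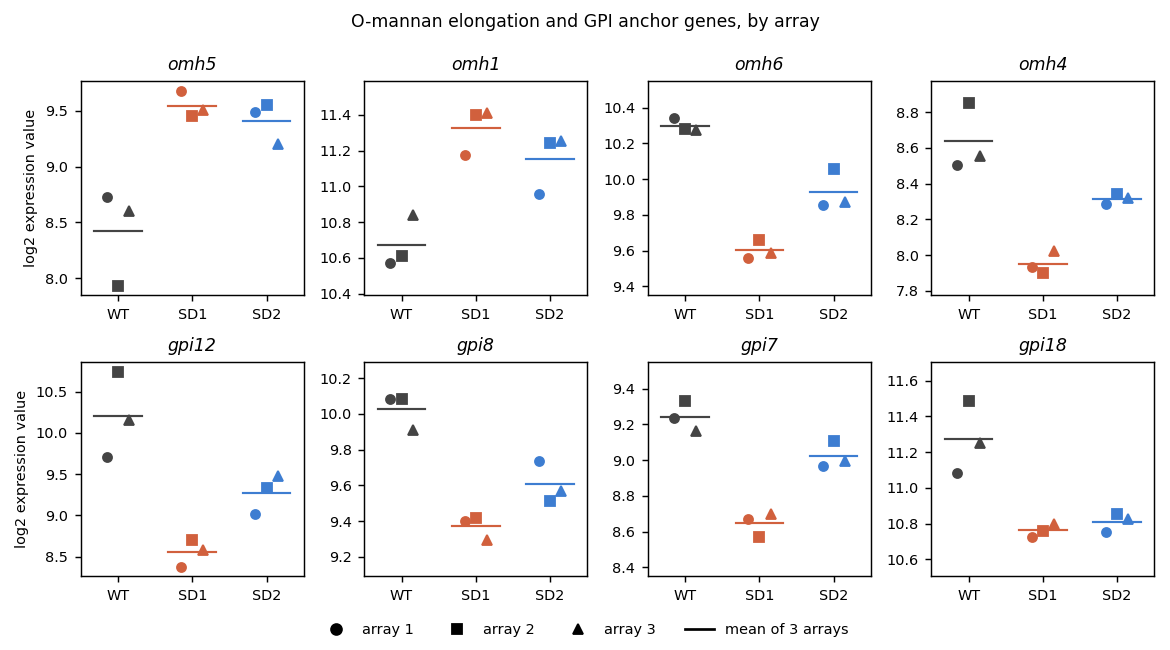
Log2 expression value of each array (y axis, own range per gene and at least 1.2 wide) for 4 omh genes and 4 GPI pathway genes in WT, SD1 and SD2, with symbols for the array number and lines at the strain mean. For omh5 and omh1 the WT arrays lie lowest, for the other genes they lie highest, and gpi12 spans 9.71 to 10.74 within WT.

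The 59 genes did not separate SD2 from SD1 at the threshold used. With limma 0 passed, beside 0.17% of all probe sets, and 12 of the 59 had an unadjusted p under 0.05, beside 334 of all 2937 probe sets (11.4%). The lowest adjusted p was 0.2, that of gpi7 (SD2 minus SD1 0.38 ± 0.08), and the next was that of omh6 (0.33 ± 0.08, adjusted p = 0.214). The arrays of the deletions did not overlap for 18 genes, 15 higher and 3 lower in SD2, which is 25.4% and 5.08% of the members beside 12.2% and 6.13% of all probe sets. The GPI pathway genes had a median difference of 0.18 and a lowest of 0.04, beside a median of 0.04 for all probe sets. Within all 3 numbers 10 of the 13 were higher in SD2, beside 1006 of all 2937 probe sets. The difference in gmh1 was 0.57 ± 0.31 with a 95% interval of -0.13 to 1.27, that in gpi12 was 0.72 ± 0.24 (0.17 to 1.27, adjusted p = 0.317), and that in pvg3 was -0.24 ± 0.06 (-0.39 to -0.10, adjusted p = 0.264). The intervals for alg3 (-0.04 to 0.50), omh5 (-0.59 to 0.32) and gms1 (-0.31 to 0.07) held 0.

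Genes of neighbouring steps that the symbol rule leaves out were listed by role. In folding and trimming of N-linked chains 3 of 5 measured genes fell and 0 rose in SD1, and 1 fell in SD2. The shares lower were 60% in SD1 and 20% in SD2, beside 23.7% and 14.3% of all probe sets. The glucosidase II gene gls2, whose product removes the glucoses that alg6 and alg8 products add, was at 11.28, 11.25 and 11.15 in WT, 10.75, 10.65 and 10.66 in SD1, and 10.92, 10.89 and 10.77 in SD2, with falls of -0.54 ± 0.07 (adjusted p = 0.000592) and -0.37 ± 0.07 (adjusted p = 0.00621). The calnexin gene cnx1 fell in SD1 (-0.49 ± 0.12, adjusted p = 0.00911) and was at -0.27 in SD2, and the glucosidase beta subunit gene gtb1 fell in SD1 by a smaller amount (-0.25 ± 0.08, adjusted p = 0.0375), lost in 11 of 16 alternatives. The reglucosylation gene gpt1 (-0.30 in SD1 and -0.18 in SD2) and the mannosidase gene mns1 (0.24 in SD1 and 0.08 in SD2) did not pass, although gpt1 passed in both with the number block (adjusted p = 0.00533 and 0.0439).

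In the supply of sugar nucleotides and dolichol 2 of 6 measured genes fell in SD1 and 1 in SD2. The shares lower were 33.3% and 16.7%, beside 23.7% and 14.3% of all probe sets. The dolichol kinase gene sec59 fell in both (-0.43 ± 0.07, adjusted p = 0.00144, and -0.27 ± 0.07, adjusted p = 0.0184), and uap1, for the enzyme that makes UDP-N-acetylglucosamine, fell in SD1 (-0.31 ± 0.10, adjusted p = 0.0357, lost in 9 of 16 alternatives). The SD2 call on sec59 was lost in 5 of 16 alternatives. The genes for making and carrying GDP-mannose did not pass, mpg1 at -0.18 in SD1 and -0.23 in SD2, pmm1 at -0.05 in SD1 and 0.03 in SD2 and the transporter gene vrg4 at 0.02 in SD1 and 0.07 in SD2. The transporter gene hut1 was at -0.24 in SD1 and -0.21 in SD2 without passing. With the number block mpg1 and hut1 passed in SD1 (adjusted p = 0.00648 and 0.0154) and in SD2 (adjusted p = 0.0036 and 0.0329).

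Genes for GPI-anchored wall proteins, which receive the anchor, moved both ways. Of 8 measured 2 rose and 2 fell in SD1, and 2 rose in SD2. In SD1 25% were higher and 25% lower, beside 19.5% and 23.7% of all probe sets. In SD2 25% were higher and 0% lower, beside 17.6% and 14.3%. The ecm33 values were 12.17, 12.19 and 12.25 in WT, 12.53, 13.09 and 13.16 in SD1, and 12.42, 12.97 and 13.07 in SD2, with rises of 0.72 ± 0.20 (adjusted p = 0.0197) and 0.62 ± 0.20 (adjusted p = 0.0482), and array 1 of each deletion lay below the other two. The glucanosyltransferase gene gas1 rose as well (0.61 ± 0.14, adjusted p = 0.00874, and 0.45 ± 0.14, adjusted p = 0.0419), while its homologue gas2 (-0.34 ± 0.08, adjusted p = 0.00916) and the phospholipase gene plb1 (-0.66 ± 0.22, adjusted p = 0.0383) fell in SD1. In SD2 gas2 was at -0.18 ± 0.08 (adjusted p = 0.118) and plb1 at -0.61 ± 0.22 (adjusted p = 0.0651), and with the number block both passed there (adjusted p = 0.0159 and 0.00293), as did gas5 (adjusted p = 0.0166). The SD2 calls on ecm33 and gas1 were lost in 8 and 10 of 16 alternatives, and the SD1 calls on ecm33, gas1, plb1 and gas2 in 5, 1, 8 and 3. Of the GPI genes outside the symbol rule, its8, for an ethanolamine phosphate transferase, was at 0.16 in SD1 and 0.20 in SD2 without passing, and per1, listed for its budding yeast namesake although the fission yeast gene of that name encodes an amino acid permease, was at 0.30 in SD1 and 0.70 in SD2 without passing. Under the block its8 passed in SD1 (adjusted p = 0.017), and its8 and per1 in SD2 (adjusted p = 0.0115 and 0.0308).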

How the data were processed

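Total RNA (500 ng, Trizol extraction) was labelled with the 3' IVT Express kit, per the labels' protocols. The authors deposited log2 expression values, and the submitters' processing notes name RMA and Partek; versions, settings and joint normalization are not given in the sources used here. The table held 10928 probe sets. Symbols came from GEO's platform annotation and were updated by gene number to ASM294v3; 2937 named probe sets belonged to S. pombe (2917 with 1 symbol) and 2601 to S. cerevisiae. Arrays give no depth, so their number limits the precision.

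All 9 arrays entered 1 model of strain means (limma 3.58.1 under R 4.3.3, lmFit and eBayes, two-sided), with Benjamini-Hochberg adjustment over the 2937 probe sets of each comparison. The script was tested on simulated data. Errors of differences are standard errors of that fit, and intervals are at 95%. A separation means that the arrays of the groups did not overlap. Array number served as a processing set, since same-numbered arrays shared 3934 to 4218 (number 1), 74 to 80 (number 2) and 168 to 353 (number 3) equal values per pair, and other pairs 0 to 4. Deviations from strain means correlated at 0.28 to 0.85 over the 3 same-numbered pairs of WT and SD1 and at -0.10 to 0.79 over those of WT and SD2, so by a limit of 0.1 the numbers paired the arrays in the first comparison and not in the second. Over all strains, pairs of different numbers correlated at -0.87 to 0.75. Only 3 of the 9 arrays correlated best with an array of their own number. Among the 59 members the same-numbered pairs shared 2 to 4, 0, and 0 to 1.

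Every member matched by symbol could be named, with the value of each array for called members and for the galactose list. Of each neighbouring list up to 4 called genes were named, or 2 as values; further uncalled members were named after their values were seen, as was gpt2. The members and lists were chosen with earlier results of these data known. Alternatives were a number block, median centring, only the strains compared, an intensity trend, a robust prior, a filter on dim probe sets, all probe sets in the fit and arrays left out. A planned promoter motif search was not run, and no sequences were analysed here.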

Additional observations from a re-analysis of the deposited data

How the results depend on the processing

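With the array number as a replicate block, the members called in SD2 were 27 (5 higher, 22 lower) in place of 17 (3 and 14), and those in SD1 were 36 in place of 28. The calls over all probe sets grew as well. In SD2 26% were higher and 23.6% lower with the block, in place of 17.6% and 14.3%. In SD1 26.8% were higher and 33% lower, in place of 19.5% and 23.7%. The block added calls and lost none among the members in SD1 and SD2. Same-numbered arrays of WT and SD1 deviated together in all 3 pairs, and those of WT and SD2 in 2 of 3, the exception being number 2 at -0.10. Over all arrays left out singly or by number, the SD1 count ran from 11 to 31 (2 to 6 higher, 9 to 26 lower) and the SD2 count from 3 to 20 (1 to 5 higher, 2 to 15 lower). The lowest counts came without the arrays numbered 3 and the highest without those numbered 1, both with 2 arrays per strain, and the cause was not tested. Without number 3, 9.47% of all probe sets were higher and 7.49% lower in SD1, and 5.65% and 2.35% in SD2. Without number 1 these shares were 22.3% and 28.6% in SD1, and 20.9% and 17.6% in SD2. Leaving out arrays by number was chosen after seeing the data, as was the count without pmt1, pmt3 and stt4 (27 in SD1 and 17 in SD2). The other alternatives gave 22 to 29 in SD1 and 13 to 17 in SD2, and SD2 against SD1 gave 0 in all of them. Of 45 calls over SD1 and SD2, 13 were kept in every alternative: omh6, alg6, gpi12, omh4, gpi8, gpi7, alg12 in SD1, and gmh1, alg3 and omh5 in both. No called member changed sign in any alternative or within any number, while uncalled values changed sign 83 times. The number of arrays, 3 per strain, limits what could be called.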
